A study of Rattus norvegicus and Bos taurus with 12 samples.

Results

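Cytokines are small secreted or membrane-bound proteins through which cells signal to their neighbors, and chemokines are the cytokines that direct cell movement. Their genes, together with those of their receptors and decoys, were followed in RNA sequencing of bovine right ventricular fibroblasts (Cfib) and of adult rat ventricular myocytes (ARVM). Members were chosen by symbol alone, in any case: chemokine ligands of the CC, CXC and CX3C classes, symbols that begin with Il and a number or with Tnf, the colony stimulating factors and their receptors, Lif, Lifr, Osm and Osmr, Thpo, Mif and a further gene family not reported here. This took 24 of the 2115 genes listed for Cfib and 72 of the 7052 genes listed for ARVM, 96 of 9167 entries in all. By function, 18 Cfib members were ligands, 4 were receptors, 1 was a decoy and 1 (TNFAIP8L1) was neither. Of the ARVM members 42 were ligands, 21 were receptors, 6 were decoys or antagonists and 3 were neither.

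A ligand acts by joining the chains of its receptor. Interleukin 1 (IL-1) and TNF family receptors pass the signal to adaptor proteins and the transcription factor NF-κB, most interleukin receptors pass it to JAK kinases and STAT factors, and chemokine receptors couple to G proteins. The signal is limited by SOCS proteins inside the cell and by decoys outside it, which are receptor-like or ligand-like proteins that bind without signaling. In the heart, fibroblasts, endothelium, resident macrophages and myocytes all make some of these ligands, and chemokines of the neutrophil, monocyte and lymphocyte classes recruit different leukocytes.

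The study compared Cfib of neonatal control calves kept at ambient altitude (CO) with Cfib of neonatal calves that had developed pulmonary hypertension (PH) under reduced atmospheric pressure, 3 libraries each. It also compared ARVM of healthy adult Sprague Dawley rats, freshly isolated (fresh ARVM), with ARVM kept for 7 days in conditioned media of PH Cfib (PH-CM ARVM), again 3 libraries each (ha2, ha209 and ha211 in the labels). The study's methods describe low-passage Cfib from biopsies of the right ventricular free wall, and ARVM released by collagenase and filtered, so both were primary cell preparations. The sample labels give bovine serum from different altitudes as the treatment but describe conditioned media in their protocol, and group names here follow the methods. In the ARVM contrast, time in culture and PH-CM cannot be told apart, since every cultured library had PH-CM. No label says whether the ARVM libraries came from separate rats, so their p-values measure the spread between these libraries, which may be technical.

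Both deposited tables hold only genes that the authors had selected for a difference between the groups. Members that did not differ are not in them, and a call is nearly automatic: with limma and Benjamini-Hochberg adjustment over the listed genes at 0.05, 97.5% of the Cfib genes and 97.6% of the ARVM genes were called in either direction. The groups did not overlap for 100% of the listed genes in Cfib and for 100% in ARVM, members included, so absence of overlap is not repeated for each gene. What can be read from these tables is which members were listed, the direction and the size of their differences. With 3 libraries against 3, an exact permutation test of a single gene cannot go below 0.1.

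ARVM values are read counts divided by 1 factor per library, from 12122463 to 18842171 reads on listed genes, and do not correct for gene length. Cfib values are scaled by length and library, so Cfib genes can be compared with each other, but their depth is unknown. Markers of 5 cell types moved with the ARVM groups. All 10 fibroblast markers rose, with a summed value of 4324 to 5343 in fresh ARVM and 93300.4 to 137752 in PH-CM ARVM. Of 20 leukocyte markers 13 were listed, 12 higher and Cd74 lower, and the sum of those 12 went from a range of 254 to 341 to a range of 7999 to 12220. With Cd74 included, the sum of all 13 was 6900 to 7052 in fresh ARVM and 8422 to 12621 in PH-CM ARVM. The 9 endothelial markers were lower except Emcn (sums 10280 to 12292 against 4169 to 4795), 5 of 7 smooth muscle and pericyte markers were higher (3500.5 to 4083 against 29122 to 47080), and 8 of 9 listed cardiomyocyte markers were lower (1067698 to 1104927 against 152081 to 183708). The part of these markers in the member results was not tested, and in bulk samples a change in the number of cells of a type cannot be told apart from a change in RNA per cell.

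In PH Cfib, 9 members rose and 15 fell. On the log2(value + 1) scale the largest rises were those of the chemokines CXCL13, CCL3 and CCL4, which were at or near 0 in CO Cfib. TNFSF18, the only TNF family ligand to rise beside 2 that fell, came next on this scale. By the ratio of means, the low gene THPO (6.41-fold) rose more than TNFSF18 (5.25-fold). The falling members included the neutrophil chemokines CXCL2 and CXCL8, which stood at high values in CO Cfib, and the lymphocyte survival factors TNFSF13B and IL7. The 37.5% of members called higher stood beside 58.2% of all listed genes, and the 62.5% called lower beside 39.4%. With a log2 fold change of at least 1 also required, 5 members (20.8%) were higher against 19.7% of listed genes and 11 (45.8%) were lower against 14.3%. The median log2 fold change was -0.95 over the members, -0.68 over the 18 ligands and -0.69 over the 4 receptors, against 0.33 over all listed genes. Rescaling by the median of ratios shifted the median of all listed genes by -0.26 and their calls from 1230 higher and 833 lower to 840 and 869, while the members remained at 9 higher and 15 lower.

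**Figure D1:**
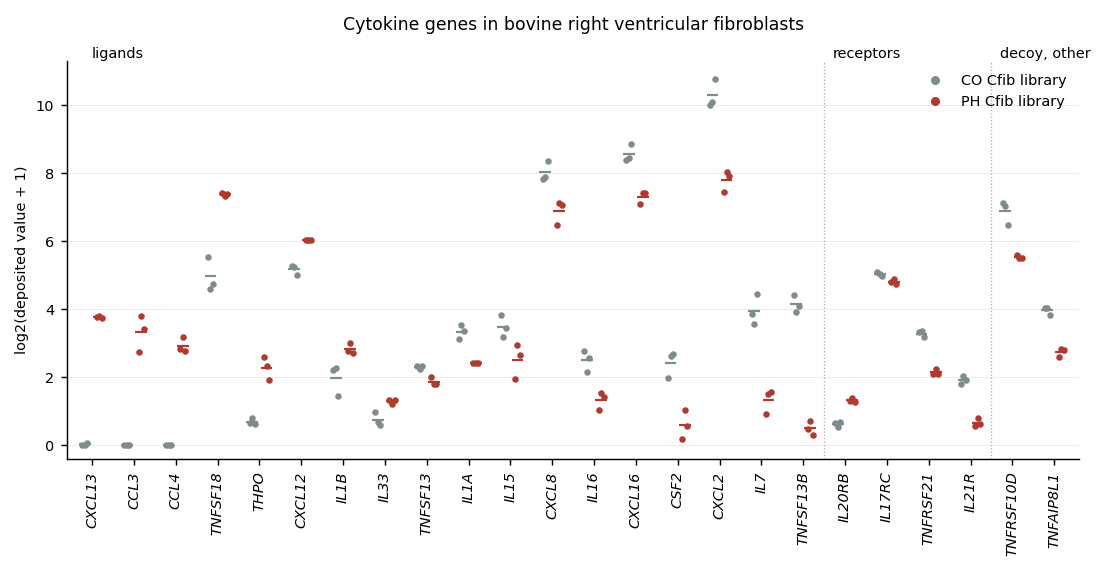
Values of the 24 members in each Cfib library, as log2 of the deposited value plus 1 (vertical axis), by gene (horizontal axis), with ligands first, then receptors, then the decoy TNFRSF10D and TNFAIP8L1. Gray points are the 3 CO libraries, red points the 3 PH libraries and short bars the group means on this scale. CXCL13, CCL3 and CCL4 sit at or near 0 in CO Cfib, and CXCL2, CXCL16 and CXCL8 are the highest members there.

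Among chemokines that rose, CXCL13, which draws B lymphocytes, was listed at 0, 0 and 0.0485 in CO Cfib and at 12.7, 13.1 and 12.3 in PH Cfib. The fitted log2(value + 1) difference was 3.75 ± 0.07 (SE, adjusted p = 8.03e-07). CCL3 and CCL4, related chemokines for monocytes and T cells, were listed at 0 in every CO library. In PH Cfib CCL3 had values of 5.68, 12.9 and 9.79, and CCL4 had values of 6.06, 8.17 and 5.77. All 3 chemokines were thus present in each PH library and at or near 0 in each CO library. CXCL12, the ligand of CXCR4, was already present in CO Cfib (37.5, 36.9 and 31.3) and rose to 64.5, 64.6 and 64.0, a log2 fold change of 0.85 ± 0.08 (adjusted p = 0.000124).

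TNFSF18, the ligand of the T cell receptor GITR, had values of 45.7, 23.2 and 25.9 in CO Cfib and 171, 159.9 and 167 in PH Cfib, where it rose by 2.42 ± 0.24 on the log2 scale (adjusted p = 0.000154). Its mean was second only to that of CXCL2 among the members in PH Cfib. THPO, the growth factor of platelet precursors, rose from 0.565, 0.728 and 0.555 to 5.07, 4.02 and 2.75 (1.59 ± 0.18). The interleukin 1 family split by gene. IL1B, the secreted fever cytokine, rose from 3.67, 3.81 and 1.73 to 5.84, 7.02 and 5.57 (0.85 ± 0.23), and the alarmin IL33 from 0.958, 0.589 and 0.518 to 1.49, 1.31 and 1.52 (0.54 ± 0.11). IL1A, the cell-associated form of interleukin 1, fell from 7.72, 10.6 and 9.21 to 4.29, 4.30 and 4.36 (-0.93 ± 0.12). The PH libraries were very alike, and with them averaged into 1 sample IL1B and IL33 were not called (adjusted p = 0.121 and 0.0737). Averaging leaves the fold change as it is and only lowers the number of samples behind the test, for these and other genes.

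Of the chemokines that fell, CXCL2 had values of 1020.1, 1101 and 1751 in CO Cfib and of 174, 261 and 239 in PH Cfib. The mean was 5.75-fold lower in PH Cfib (log2 fold change -2.50 ± 0.25, adjusted p = 0.000157). CXCL2 was nonetheless the member with the highest mean in both groups. CXCL8, the other neutrophil chemokine, fell from 226, 238 and 329 to 88.5, 138 and 132 (-1.15 ± 0.21), and CXCL16, a membrane-bound chemokine that also acts as a scavenger receptor, from 336, 346 and 466 to 136, 170.0 and 169 (-1.26 ± 0.15). CO Cfib 3 had the highest value of all 3 genes. In PH Cfib the values of TNFSF18, CXCL16 and CXCL8 were neighbors in level, and those of CXCL16 overlapped with both others.

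The B lymphocyte survival factor TNFSF13B, also known as BAFF, showed the deepest fall, from 20.2, 14.2 and 16.0 to 0.394, 0.622 and 0.240. Its mean was 40.1-fold lower in PH Cfib (log2 fold change -3.64 ± 0.16, adjusted p = 7.1e-06). Its relative TNFSF13, or APRIL, fell far less, from 4.03, 3.71 and 4.01 to 3.03, 2.46 and 2.46 (-0.43 ± 0.09). IL7, which maintains lymphocytes, fell from 13.5, 10.7 and 20.6 to 0.878, 1.82 and 1.96, a 9.63-fold lower mean. CSF2, or GM-CSF, fell from 2.96, 5.13 and 5.42 to 0.130, 1.03 and 0.464. For IL16, a ligand of CD4, the means were 4.73 ± 1.19 in CO Cfib and 1.54 ± 0.446 in PH Cfib (SD, n = 3), and for IL15, which supports natural killer cells, 10.4 ± 2.54 and 4.94 ± 1.97. The calls of IL15 and TNFSF13 were lost with the PH libraries averaged (adjusted p = 0.0567 and 0.076).

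Only 4 receptors were listed for Cfib. IL20RB, a chain of the receptors for interleukins 20 and 24, rose from 0.587, 0.443 and 0.605 to 1.47, 1.60 and 1.40 (0.69 ± 0.08, adjusted p = 0.000288). IL21R, which pairs with the common gamma chain, fell from 2.45, 3.06 and 2.76 to 0.474, 0.746 and 0.542 (-1.24 ± 0.10). TNFRSF21, a death-domain receptor, fell from 8.99, 9.24 and 7.99 to 3.25, 3.72 and 3.28 (-1.14 ± 0.09). IL17RC, a chain of the interleukin 17 receptor, differed least, with means of 31.9 ± 1.21 and 27.0 ± 1.63 (-0.23 ± 0.07). Its call was lost without PH Cfib 3 (adjusted p = 0.0568) and with the PH libraries averaged (0.132). The decoy TNFRSF10D, which binds TRAIL without a complete death domain, had values of 138, 129.9 and 88.5 in CO Cfib and 47.4, 44.3 and 44.5 in PH Cfib (-1.34 ± 0.17). TNFAIP8L1, matched by its name only and not a cytokine gene, fell from 14.7 ± 1.24 to 5.70 ± 0.570.

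Few genes of the lists that act downstream of these receptors were listed for Cfib, where 2115 genes were listed in all. None of the 4 JAK kinases and none of 8 SOCS genes was listed, which says only that the authors did not select them. Of 7 STAT genes only STAT4 was listed (-0.38 ± 0.12). Of 32 genes of NF-κB and of TNF and interleukin 1 signaling 7 were listed, 3 higher and 4 lower. BIRC3, an inhibitor of cell death that NF-κB induces, fell by 1.22 on the log2 scale, the NF-κB inhibitor NFKBIA fell by 0.75, and the kinase MAP3K7 rose by 0.75. Of 23 chemokine receptors 3 were listed. The mean of ACKR3, a scavenger of CXCL12, went from 239 to 126 (log2 fold change -0.91 ± 0.10). CXCR4 went from 1.59 to 0.675 (-0.63 ± 0.08) and CCR10 from 0.679 to 1.05 (0.30 ± 0.10). CD74 rose from a mean of 0.138 to 1.03 (0.83 ± 0.12) and FAS from 10.9 to 13.6 (0.30 ± 0.07). For CXCR4, CCR10 and CD74, at such low values, the added 1 shrinks the log2 fold change, so its size is not comparable with that of ACKR3. Leukocyte markers were listed for Cfib in 6 of 20 cases, 5 higher and CD14 lower, with sums of 13.2 to 15.7 in CO Cfib and 17.5 to 18.8 in PH Cfib, and PTPRC, the pan-leukocyte marker, was not among them. Both listed fibroblast markers, COL1A2 and TCF21, were higher (sums 1873 to 2542 against 5937 to 6251), 4 of 5 listed smooth muscle and pericyte markers were higher (97.4 to 133 against 225 to 236), ESAM was the only endothelial marker (5.58 to 7.54 against 2.03 to 2.94), and no cardiomyocyte marker was listed. Their part in the Cfib member results was not tested.

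In PH-CM ARVM, 51 members rose and 21 fell. The direction differed by family. All listed interleukin 1 family ligands, receptors and decoys rose. So did 6 of 9 CC chemokines, 6 of 7 TNF family ligands and 5 of 6 decoys or antagonists. CXC and CX3C chemokines divided 4 and 4, and colony stimulating factor ligands 2 and 2. Among TNF receptors 2 rose and 3 fell, and among common gamma and beta chain receptors also 2 rose and 3 fell. Falling members included Ccl22, Cxcl9, Cxcl2, Csf3 and Il6, and the receptors Tnfrsf11a, Il2rg and Csf2rb. The 70.8% of members called higher stood beside 53.9% of all listed genes, and the 29.2% called lower beside 43.7%. With a log2 fold change of at least 1, 40 members (55.6%) were higher against 32.3% of listed genes and 17 (23.6%) were lower against 16.0%. The median log2 fold change was 1.51 over the members, 1.65 over ligands, 0.98 over receptors and 2.66 over decoys (2.60 with genes at 0 reads set at their lower bound), against 0.37 over all listed genes. Regardless of direction, the median size was 2.38 for the members and 0.96 for all listed genes.

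**Figure D2:**
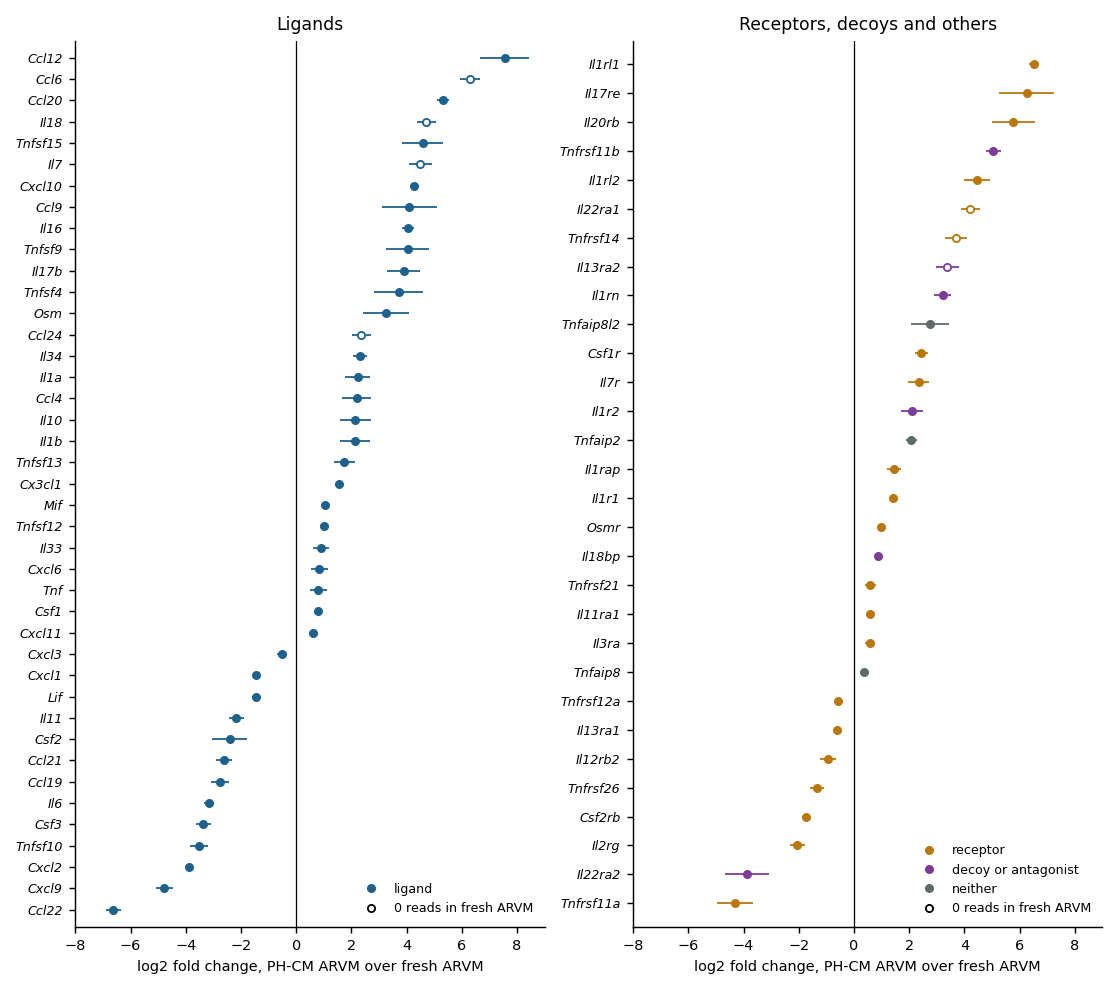
Log2 fold change of PH-CM ARVM over fresh ARVM (horizontal axis, on log2 of the normalized count plus 1, with bars of 1 standard error from limma) for the ligands at left, except 1 not reported here, and for the 21 receptors, 6 decoys or antagonists and 3 other genes at right. Open points are genes without a read in fresh ARVM, whose fitted value depends on the added 1. The ligands run from Ccl22 at -6.63 to Ccl12 at 7.55, and Il1rl1 at 6.52 leads the receptors.

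Of the 9 CC chemokines, 6 rose and 3 fell. Ccl12, a rodent chemokine for monocytes, had normalized counts of 9.50, 0 and 9.30 in fresh ARVM and 968, 534 and 1370.2 in PH-CM ARVM, a log2 fold change of 7.55 ± 0.89 (adjusted p = 0.000115) that fell to 6.42 without fresh ARVM 5, the library at 0. Ccl6 had no read in fresh ARVM and counts of 64.3, 104 and 69.4 in PH-CM ARVM, which is at least 66.2-fold higher when 3 reads over the fresh group are taken as the floor (a bound for counting error only). Ccl9, another rodent ligand of CCR1, rose from 17.4, 11.8 and 0 to 83.2, 129 and 108. Its log2 fold change of 4.10 ± 1.0 was 2.79 without fresh ARVM 6 and 4.89 without fresh ARVM 4. Ccl20, the ligand of CCR6, rose more evenly, from 30.1, 35.3 and 27.9 to 1279.6, 987 and 1598 (5.31 ± 0.21, adjusted p = 4.25e-07). Ccl4 rose from 8.39 ± 4.79 to 39.5 ± 14.9, and Ccl24, an eosinophil chemokine, went from no read to a mean of 4.11 ± 0.287 (at least 3.46-fold higher).

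The 3 CC chemokines that fell serve lymphocyte and dendritic cell traffic. Ccl22, a ligand of CCR4 made by dendritic cells and macrophages, had counts of 1820.0, 2112 and 1868 in fresh ARVM and 28.7, 12.9 and 16.9 in PH-CM ARVM. That is a 99.0-fold lower mean (log2 fold change -6.63 ± 0.28, adjusted p = 4.97e-07), the deepest fall among the members. Both ligands of CCR7 fell as well, Ccl19 from 50.5 ± 8.52 to 6.58 ± 1.03 (-2.76 ± 0.32) and Ccl21 from 104 ± 14.2 to 16.5 ± 4.12 (-2.60 ± 0.29). Their receptor Ccr7 moved the other way, from 9.84 ± 7.93 to 226 ± 25.8 (4.62 ± 0.48).

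The CXC and CX3C chemokines divided 4 and 4. The 3 ligands of CXCR3, which interferon induces, did not move together. Cxcl10 rose from 253, 242 and 238 to 4066, 5800.3 and 4300.1 (4.25 ± 0.13, adjusted p = 1.39e-07), Cxcl11 rose from 2221 ± 218 to 3419 ± 431 (0.62 ± 0.11), and Cxcl9 fell from a mean of 215 ± 37.3 to counts of 5.29, 8.63 and 6.77 (-4.78 ± 0.30, adjusted p = 3.99e-06). Cxcl9 was thus low in the libraries in which Cxcl10 was high. Among the neutrophil chemokines, Cxcl1 fell from 7365, 7049 and 7573 to 2679, 2385 and 3043 (-1.45 ± 0.09), and Cxcl2 from 819.8, 887 and 856 to 51.4, 59.5 and 61.8 (-3.87 ± 0.15, adjusted p = 3.27e-07). Cxcl3 fell by 0.53 ± 0.18 and Cxcl6 rose by 0.83 ± 0.31 on the log2 scale. The call of Cxcl3 was lost without fresh ARVM 5 or 6 or PH-CM ARVM ha2 or ha209, and that of Cxcl6 without fresh ARVM 5 or PH-CM ARVM ha2 or ha211. The adjusted p-values without PH-CM ARVM ha2, the highest of these, were 0.0785 for Cxcl3 and 0.104 for Cxcl6. Cxcl1, Cxcl2 and Cxcl3 are close relatives, and reads shared between such copies may have been split by the counting. Cx3cl1, or fractalkine, a membrane-bound chemokine of endothelium, rose from 2491 ± 435 to 7271 ± 1063 (1.55 ± 0.15), beside endothelial markers that were mostly lower.

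**Figure D3:**
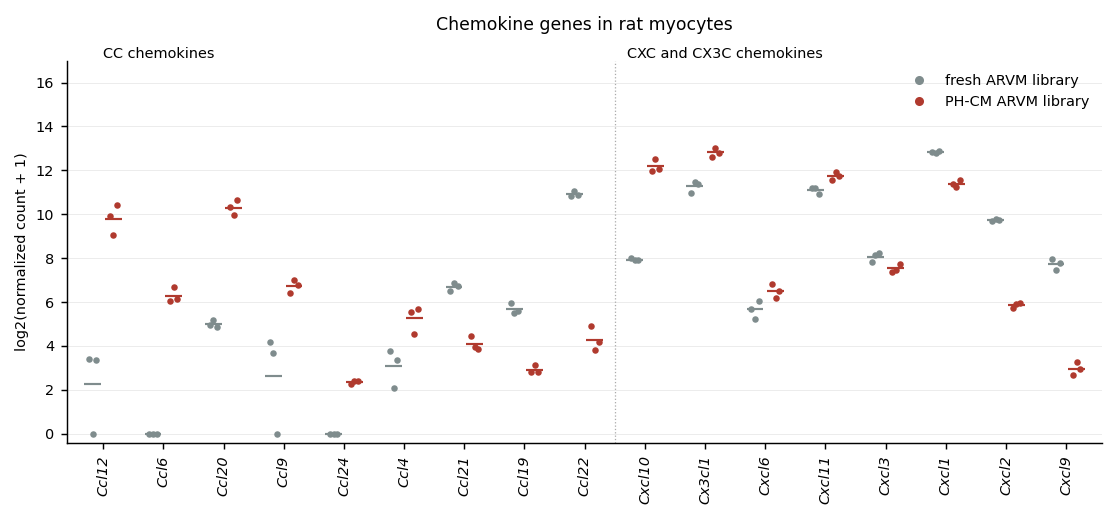
Normalized counts of the 17 chemokine genes listed for ARVM, as log2 of the count plus 1 (vertical axis), by gene (horizontal axis), CC chemokines at left and CXC and CX3C chemokines at right, each ordered by fold change. Gray points are fresh ARVM libraries, red points PH-CM ARVM libraries and short bars group means on this scale. Ccl22, Cxcl2 and Cxcl9 lie far lower in PH-CM ARVM, and Ccl12, Ccl6, Ccl20 and Cxcl10 far higher.

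Matches to the NF-κB consensus were found in promoters of chemokines that rose and of chemokines that fell. In the rat assembly GRCr8, RefSeq lists 72 of the 72 ARVM symbols, and 50 have a promoter sequence in the table used here. The 250 bases before the start of these genes were searched on both strands. The NF-κB consensus was found in 11 of 50 (22.0%), against 3.54% of all 33469 rat promoters of the same length, and of those 11 genes 7 rose and 4 fell. Shares of members count gene symbols with a match in any promoter of the symbol, whereas shares of all promoters count sequences. Genes with a match were Ccl20, Ccl9, Cxcl10, Cxcl11, Cxcl6, Il1r1 and Il1rap, which rose, and Cxcl1, Cxcl2, Il6 and Il12rb2, which fell. The other motifs were found less often. The interferon-stimulated response element was in 3 of 50 (6.0%, against 3.41% of all promoters), the AP-1 motif TGANTCA in 6 (12.0%, against 6.34%) and the STAT motif TTCNNNGAA in 6 (12.0%, against 7.67%). Cxcl10 held a match to the first of these and to the AP-1 motif. A match describes the letters and is not evidence of binding.

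Shown here, 5′ to 3′ and ending at the base before the start, are promoters of chemokines with an NF-κB match that fell (Cxcl1 and Cxcl2) and that rose (Cxcl10 and Ccl20). Capitals mark the bases of the match. Cxcl1 lies on the minus strand at chr14:17479322-17479571, with overlapping matches 84 to 74 bases before the start, and its neighbor Cxcl2 on the minus strand at chr14:17467256-17467505, with overlapping matches 74 to 64 bases before it. Cxcl10 lies on the plus strand at chr14:15988816-15989065, with a match 187 to 178 bases before the start, and Ccl20 on the plus strand at chr9:91836909-91837158, with a match 89 to 80 bases before it.
Cxcl1: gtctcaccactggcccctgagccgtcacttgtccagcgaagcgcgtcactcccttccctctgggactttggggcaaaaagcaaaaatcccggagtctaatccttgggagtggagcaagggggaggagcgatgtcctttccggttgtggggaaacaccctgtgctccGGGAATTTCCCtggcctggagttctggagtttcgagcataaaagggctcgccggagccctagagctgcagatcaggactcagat
Cxcl2: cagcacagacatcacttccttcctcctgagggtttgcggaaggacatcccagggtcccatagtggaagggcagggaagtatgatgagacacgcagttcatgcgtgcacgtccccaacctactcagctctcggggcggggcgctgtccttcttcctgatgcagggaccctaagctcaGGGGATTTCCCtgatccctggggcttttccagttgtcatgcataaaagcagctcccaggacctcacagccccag
Cxcl10: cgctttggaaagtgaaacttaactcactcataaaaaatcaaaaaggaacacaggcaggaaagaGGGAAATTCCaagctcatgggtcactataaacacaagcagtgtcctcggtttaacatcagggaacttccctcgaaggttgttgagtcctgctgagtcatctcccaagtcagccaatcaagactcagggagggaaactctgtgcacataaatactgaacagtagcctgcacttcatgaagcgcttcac
Ccl20: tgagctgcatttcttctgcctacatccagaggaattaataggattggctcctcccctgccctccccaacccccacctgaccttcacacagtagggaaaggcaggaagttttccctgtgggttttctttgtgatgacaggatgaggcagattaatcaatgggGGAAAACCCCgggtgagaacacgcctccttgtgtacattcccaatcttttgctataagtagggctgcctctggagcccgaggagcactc

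Neighboring members did not always move together. In the order of protein-coding genes of GRCr8, 10 pairs of members, made of 18 genes, were direct neighbors, and 7 pairs moved the same way. With 51 of 72 members rising, members that are not neighbors would also often share a direction, and no comparison with such pairs was made. Same-direction neighbors included Cxcl2 and Cxcl1, Cxcl11 and Cxcl10, Ccl9 and Ccl6, Il1a and Il1b, and the run of Il1r1, Il1rl2 and Il1rl1. The 3 pairs that moved in opposite directions were Cxcl10 with Cxcl9, Osm with Lif, and Cx3cl1 with Ccl22. The counting was not stated to use strand, so reads of overlapping neighbors could not be separated.

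All 11 listed members of the interleukin 1 family rose in PH-CM ARVM: 4 ligands, 4 receptor chains and 3 decoys or antagonists. The largest rise was that of Il1rl1, also known as ST2, the receptor of interleukin 33, which is made as a membrane form and as a soluble form that the gene counts do not separate. Its counts were 123, 111 and 96.1 in fresh ARVM and 8362, 9558 and 13217 in PH-CM ARVM, a 94.1-fold higher mean (log2 fold change 6.52 ± 0.17, adjusted p = 1.04e-07). Every PH-CM library lay far above every fresh library. The shared accessory chain Il1rap rose from 117, 61.1 and 90.9 to 219, 251 and 252 (1.46 ± 0.26), the signaling receptor Il1r1 from 347, 352 and 436 to 1066, 846 and 1148 (1.43 ± 0.14), and Il1rl2, the receptor of interleukin 36, from 23.7, 5.36 and 11.4 to 261, 248 and 316 (4.46 ± 0.47).

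Ligands of this family rose from low counts. Il1a rose from 14.2, 7.50 and 20.7 to 57.5, 49.2 and 96.5 (2.22 ± 0.44), and Il1b from 14.2, 42.8 and 66.1 to 171, 108 and 205 (2.14 ± 0.54). For Il1b the value was 1.53 without fresh ARVM 4, its lowest library. Il18, which acts with interleukin 12 on T cells, had no read in fresh ARVM and counts of 25.7, 28.5 and 22.0 in PH-CM ARVM (at least 21.4-fold higher). Il33 rose least, from 63.3, 86.8 and 55.8 to 155, 95.8 and 139 (0.91 ± 0.28, adjusted p = 0.0144), and its call was lost without PH-CM ARVM ha2 (adjusted p = 0.0603) or PH-CM ARVM ha211 (0.0501).

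Proteins that restrain the same ligands rose beside them. Il1rn, the receptor antagonist of interleukin 1, went from 31.7, 30.0 and 25.8 to 250.3, 204 and 419.8 (3.21 ± 0.30, adjusted p = 3.4e-05). The decoy receptor Il1r2 rose from 31.7, 25.7 and 14.5 to 126, 67.3 and 124 (2.11 ± 0.39), and Il18bp, which binds interleukin 18, from 372, 411 and 368 to 653, 725 and 729.5 (0.87 ± 0.10). The counts of antagonist and agonist are not corrected for gene length and were not compared with each other. Of the decoys outside this family, Tnfrsf11b, or osteoprotegerin, which binds RANK ligand and TRAIL, rose from 74.4, 81.4 and 41.3 to 2096, 1659 and 2738 (5.05 ± 0.28, adjusted p = 2.2e-06). Il13ra2, a decoy for interleukin 13, had no read in fresh ARVM and counts of 13.6, 6.04 and 10.2 in PH-CM ARVM (at least 8.53-fold higher). The exception was Il22ra2, a soluble protein that binds interleukin 22. It fell from 47.5, 21.4 and 18.6 to 0, 0 and 5.92 (-3.86 ± 0.80, adjusted p = 0.00229), or by 4.79 without PH-CM ARVM ha211.

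**Figure D4:**
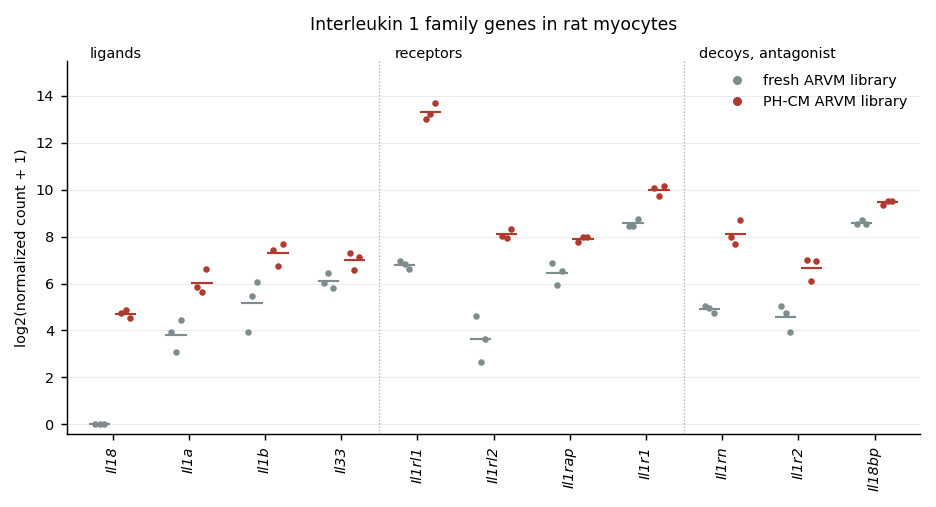
Normalized counts of the 11 interleukin 1 family genes in ARVM, as log2 of the count plus 1 (vertical axis), by gene (horizontal axis), with 4 ligands, 4 receptors and 3 decoys or antagonists from left to right. Gray points are fresh ARVM libraries, red points PH-CM ARVM libraries and short bars group means on this scale. Every gene is higher in all 3 PH-CM libraries, with the widest gap for Il1rl1.

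The interleukin 6 family showed ligands that moved apart and receptors that rose modestly. Il6 itself fell from 736, 534 and 517 to 65.0, 64.7 and 64.3, a 9.21-fold lower mean (-3.16 ± 0.18, adjusted p = 2.64e-06). Il11, a profibrotic member, fell from 91.8, 109 and 98.1 to 17.4, 22.4 and 24.5 (-2.17 ± 0.27), and Lif, known to drive myocyte growth, from 451 ± 49.8 to 164 ± 16.6 (-1.46 ± 0.15). Osm, a macrophage product that acts on myocytes, rose from 0, 0 and 7.23 to 19.7, 12.1 and 25.4 (3.25 ± 0.83, and 4.27 without fresh ARVM 6). Its receptor Osmr rose from 523 ± 52.5 to 1031 ± 115 (0.98 ± 0.12), and Il11ra1 from 2078 ± 198 to 3112 ± 76.3 (0.59 ± 0.08).

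Among 7 TNF family ligands, only Tnfsf10, or TRAIL, fell, from 141, 174 and 129 to 8.32, 11.2 and 17.8 (-3.52 ± 0.34, adjusted p = 3.78e-05). Tnf itself had counts of 53.8, 106 and 99.2 in fresh ARVM and 138, 129 and 173 in PH-CM ARVM (0.81 ± 0.30, adjusted p = 0.0304). That call was lost without fresh ARVM 4 and without each PH-CM library in turn, with adjusted p-values of up to 0.104 (without PH-CM ARVM ha211). Tnfsf15, Tnfsf9 and Tnfsf4, which costimulate T cells, rose from means below 5 to 74.3 ± 17.9 (4.58 ± 0.75), 64.1 ± 19.0 (4.04 ± 0.79) and 28.7 ± 9.21 (3.71 ± 0.90). These values rest on few reads in fresh ARVM: the log2 fold change of Tnfsf15 was 3.77 without fresh ARVM 4 and 5.38 without fresh ARVM 6, that of Tnfsf9 was 3.06 without fresh ARVM 6 and 4.64 without fresh ARVM 4, and that of Tnfsf4 was 4.85 without fresh ARVM 5. Tnfsf13 rose by 1.74 ± 0.38 and Tnfsf12, or TWEAK, by 1.01 ± 0.17. Tnfrsf12a, the receptor of TWEAK, fell from 7298 ± 611 to 4830.3 ± 76.3 (-0.59 ± 0.07).

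The other TNF receptors were mixed. Tnfrsf11a, or RANK, fell from 71.2, 36.4 and 62.0 to 3.02, 0 and 4.23 (-4.33 ± 0.65, adjusted p = 0.000427, and -3.59 without PH-CM ARVM ha209). Its loss of counts stood beside the rise of osteoprotegerin, the decoy for its ligand. Tnfrsf26 fell from 239 ± 52.9 to 94.0 ± 19.8 (-1.33 ± 0.25). Tnfrsf14, a receptor of lymphotoxin-related ligands, went from no read to a mean of 12.7 ± 5.88 (at least 10.6-fold higher). Tnfrsf21 rose from 81.3 ± 12.0 to 122 ± 2.59 (0.59 ± 0.21), a call that was lost without fresh ARVM 5, PH-CM ARVM ha2 or PH-CM ARVM ha211, with adjusted p-values of up to 0.0608. Of the genes matched by name only, Tnfaip2 rose by 2.08 ± 0.19 and Tnfaip8l2 by 2.76 ± 0.69 (2.04 without fresh ARVM 5 and 3.42 without fresh ARVM 4). Tnfaip8 rose by 0.35 ± 0.13, a call that was lost with DESeq2 (adjusted p = 0.06), without fresh ARVM 6 (0.0977) and without PH-CM ARVM ha2 (0.0724), ha209 (0.0614) or ha211 (0.0627).

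Colony stimulating factors parted, with 2 of 4 ligands higher and 2 lower. The macrophage factors Csf1 and Il34, which share the receptor Csf1r, rose, Csf1 from 2389.7, 2429 and 2446 to 3948, 4223 and 4403 (0.79 ± 0.06, adjusted p = 8.47e-06) and Il34 from 22.2, 28.9 and 21.7 to 122, 125 and 126 (2.32 ± 0.25). Csf1r, itself a macrophage marker, rose from 60.1, 42.8 and 41.3 to 307, 209.7 and 282 (2.45 ± 0.25). The granulocyte factor Csf3 fell from 389, 245 and 260.3 to 21.9, 31.9 and 28.8 (-3.38 ± 0.27, adjusted p = 1.45e-05). Csf2 fell from 116, 94.3 and 118 to 6.05, 44.0 and 27.1 (-2.40 ± 0.63), and by 1.63 without PH-CM ARVM ha2, its lowest library. Csf2rb, the shared beta chain for Csf2, interleukin 3 and interleukin 5, fell from 945 ± 92.2 to 280.5 ± 41.9 (-1.75 ± 0.14).

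Receptors of the common gamma chain group also parted. Il2rg, the common gamma chain itself, fell from 339, 412 and 350.2 to 84.7, 61.3 and 130.3 (-2.05 ± 0.28, adjusted p = 0.000242). Il7r, which pairs with it, rose from 6.33, 12.9 and 14.5 to 65.8, 65.6 and 44.9 (2.34 ± 0.39), and the ligand Il7 went from no read to 32.5, 12.9 and 23.7 (at least 19.8-fold higher). Il13ra1 fell by 0.62 ± 0.14 and Il3ra rose by 0.59 ± 0.18, and the latter was not called without PH-CM ARVM ha2 (adjusted p = 0.0537). The interleukin 12 receptor chain Il12rb2 fell from 72.6 ± 11.5 to 37.8 ± 9.69 (-0.94 ± 0.30).

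Remaining members showed some of the widest relative rises from near 0. Il17re, a receptor chain for interleukin 17C, rose from 14.2, 0 and 0 to 184, 177 and 205 (6.25 ± 0.99, adjusted p = 0.000553), with values from 5.60 (without fresh ARVM 5 or 6) to 7.56 (without fresh ARVM 4). Il20rb rose from 0, 0 and 5.17 to 96.0, 59.5 and 171 (5.77 ± 0.77, and 6.65 without fresh ARVM 6). Il22ra1 had no read in fresh ARVM and a mean of 17.7 ± 2.62 in PH-CM ARVM (at least 15.0-fold higher). Il17b had 2 reads in all of fresh ARVM and 84 in PH-CM ARVM, a 29.0-fold ratio of rates with a 95% exact interval of 7.8 to 244. Both fresh reads were in fresh ARVM 4, without which the fresh group had none and the log2 fold change was 4.58, more than 1.5 times higher in fold than with it. Il10, an anti-inflammatory cytokine, had 2 reads against 21, a 7.26-fold ratio with an interval of 1.78 to 63.9. These intervals cover counting error only, and neither Il10 nor Ccl24 was called by DESeq2 (adjusted p = 0.118 and 0.069). Il16 rose from 19.0, 25.7 and 22.7 to 361, 411 and 398 (4.07 ± 0.22, adjusted p = 1.69e-06) and Mif, an abundant cytokine of many cell types, from 2127 ± 132 to 4333 ± 205 (1.03 ± 0.07).

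Downstream genes listed for ARVM, where 7052 genes were listed against 2115 for Cfib, moved both ways. Of 8 SOCS genes 5 were listed, 1 higher and 4 lower: Socs2 fell from 377 ± 45.7 to 106 ± 13.1 (-1.82 ± 0.18), Socs3, a target and brake of interleukin 6 signaling, from 2032 ± 149.7 to 739 ± 56.0 (-1.46 ± 0.09), and Socs6 from 2099.9 ± 95.2 to 780.4 ± 60.9 (-1.43 ± 0.08). Of 7 STAT genes 4 were listed, 2 higher (Stat6 by 1.09 ± 0.13 and Stat2 by 0.62 ± 0.10) and 2 lower (among them Stat3, -0.63 ± 0.06). Of 4 JAK kinases, Tyk2 rose by 0.39 ± 0.11 and Jak1 had a log2 fold change of -0.14 ± 0.06. In the list of NF-κB, TNF and interleukin 1 signaling 13 of 32 were listed, 7 higher and 6 lower. Irak3, an inhibitor of interleukin 1 receptor signaling, rose from 128 ± 18.5 to 416 ± 75.4 (1.69 ± 0.19), its relative Irak2 fell from 357 ± 50.4 to 108 ± 27.2 (-1.74 ± 0.22), and the adaptor Tradd rose by 1.46 ± 0.30. Chemokine receptors were listed in 5 of 23 cases, 3 higher and 2 lower, led by Ccr7, Ccr1 (4.20 ± 0.86) and Ackr3 (2.95 ± 0.23). Fas, a death receptor of the TNF family, rose by 1.35 ± 0.12, and Cd74, a receptor for Mif and a chaperone of antigen presentation, fell from 6691 ± 117 to 449 ± 65.0 (-3.90 ± 0.10).

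Because PH Cfib made the media in which ARVM were kept, ligand genes of Cfib can be set beside receptor genes of ARVM. Of 86 textbook pairs, 33 had a ligand listed for Cfib, and 16 of these, with 9 ligands, also had the receptor listed for ARVM. Among ligands that rose in PH Cfib, IL33 (0.54, to a mean of only 1.44) stood beside Il1rl1 (6.52) and Il1rap (1.46). IL1B (0.85) stood beside Il1r1 (1.43), Il1rap and the decoy Il1r2 (2.11). CCL3 (3.32, from values of 0) stood beside Ccr1, which rose from 2.64 ± 4.57 to 39.5 ± 17.5. CXCL12 (0.85) had receptors that parted, with Cxcr4 falling from 2210 ± 118 to 1493 ± 168 (-0.57 ± 0.09) and the scavenger Ackr3 rising from 185 ± 27.3 to 1466 ± 415. Among ligands that fell in PH Cfib, IL1A (-0.93) stood beside the same Il1r1, Il1rap and Il1r2 as IL1B, and IL15 (-0.97) beside Il2rg (-2.05). Likewise IL7 (-2.63) stood beside Il7r (2.34) and Il2rg, CSF2 (-1.84) beside Csf2rb (-1.75), and IL16 (-1.17) beside Cd4, which went from no read in fresh ARVM to a mean of 59.8 ± 11.4 in PH-CM ARVM. Cd4 was itself among the 12 leukocyte markers that rose, and which cells held these receptor transcripts was not tested. No receptor of TNFSF18, TNFSF13B, TNFSF13, CXCL2, CXCL8, CXCL16 or CCL4 in the pair list was listed for ARVM. CXCL13 and THPO were not in the pair list. These are values of different genes in different species, measured as RNA, and no test of a relation was made. The Cfib values compare PH with CO, whereas the ARVM values compare PH-CM with fresh cells. No ARVM library was kept in media of CO Cfib, so a difference between PH and CO has no counterpart in ARVM.

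Within ARVM, 24 pairs had both partners listed. Both rose for Il1a and Il1b with Il1r1, for Il33 with Il1rl1, for Il7 with Il7r, for Osm with Osmr, and for Csf1 and Il34 with Csf1r. Both fell for Csf2 with Csf2rb. In other pairs the ligand fell and the receptor rose, as for Il11 with Il11ra1, Ccl21 with Ccr7 and Tnfsf10 with the decoy Tnfrsf11b, or the reverse, as for Tnfsf12 with Tnfrsf12a and Mif with Cd74.

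Listed in both tables were 11 members, 45.8% of those of Cfib and 15.3% of those of ARVM. CCL4, IL1B, IL20RB and IL33 rose in both, and CSF2 and CXCL2 fell in both. IL1A, IL7, IL16, TNFSF13 and TNFRSF21 fell in PH Cfib and rose in PH-CM ARVM. IL7, for example, had a 9.63-fold lower mean in PH Cfib and was without a read in fresh ARVM but present in each PH-CM library. CXCL2 fell by 2.50 in Cfib and by 3.87 in ARVM on the log2 scale. The contrasts differ in species, cell type and design, and a difference between them was not tested.

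**Figure D5:**
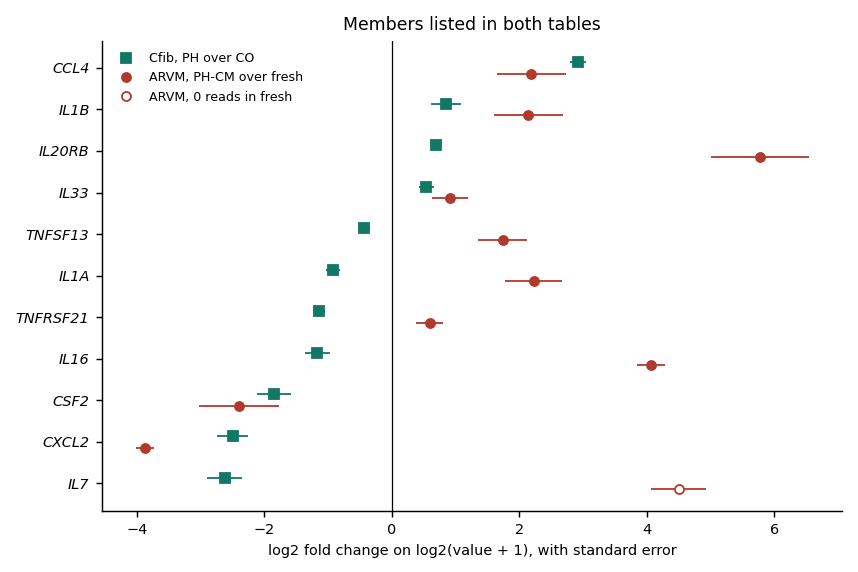
Log2 fold changes (horizontal axis, on log2 of the value plus 1, with bars of 1 standard error) of the 11 members listed in both tables, by gene. Green squares are PH over CO in Cfib and red circles are PH-CM over fresh in ARVM, with an open circle for Il7, which had no read in fresh ARVM. Squares and circles lie on the same side of 0 for 6 genes and on opposite sides for 5.

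Replicates varied more for the members than for the listed genes as a whole. The median coefficient of variation of the members was 20.1% in CO Cfib, 12.4% in PH Cfib, 17.7% in fresh ARVM and 20.2% in PH-CM ARVM. Over all listed genes it was 13.7%, 5.01%, 9.74% and 10.1%, in the same order. Members and listed genes were not matched for level, and the part of low values in this difference was not tested. PH Cfib libraries were the most alike, as for CXCL12 (64.5, 64.6 and 64.0) and IL1A (4.29, 4.30 and 4.36). Members at 0 in every library of a group have no such value and were left out, 2 in CO Cfib and 7 in fresh ARVM.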

How the data were processed

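RNA of 12 libraries, 3 in each of 4 groups, was depleted of ribosomal RNA and sequenced by the authors, who aligned reads to bosTau8 or rn6 with HISAT2 and StringTie and normalized with DESeq2 (submitters' processing notes and the study's methods, versions not given). The authors deposited genes with a value above 1 in a condition and a P-value under 0.05. For ARVM the deposited signal holds counts of reads, each library divided by a factor of its own: 100% of values were whole reads within 0.01 reads. For Cfib the deposited signal depends on gene length and on the library, and whether it is FPKM or TPM is not given in the sources used here. No column was left unused (0).

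Groups were compared on log2(value + 1) in limma 3.58.1 under R 4.3.3, using its trended eBayes, with Benjamini-Hochberg adjustment over all listed genes and a threshold of 0.05. SE is limma's standard error, and fold changes on this scale understate those of low Cfib genes. edgeR 4.0.16 (quasi-likelihood, TMM) and DESeq2 1.42.0 were run on the recovered reads. For low ARVM genes the fitted value could err either way. It was smaller than with edgeR and DESeq2 for genes without a fresh read, such as Ccl6 and Il18. Among genes with reads in only some fresh libraries, it was larger for Ccl12, Ccl9 and Il17re and smaller for Il17b and Il10. Alternatives were pseudocounts of 0.1 and 10, a minimum mean of 5 (Cfib) or 50 (ARVM), scaling to the median of ratios, an untrended eBayes, leaving out each library, a replicate block (Cfib), averaged PH libraries and a log2 fold change of at least 1. The models were tested on simulated data. Tables were read with Python 3.11.15 and pandas 2.3.3.

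Members and lists were chosen with earlier results of these data known. Named were every Cfib member and, in ARVM, decoys, members of both tables, partners of Cfib ligands and for each family those that changed most (up to 4 ligands and 4 receptors, where the higher group averaged 10 or more), and up to 3 genes per pathway list. The remaining ARVM members were named after their values were seen, and 1 ARVM ligand is counted but not reported here. Promoters and gene order came from RefSeq (GRCr8). Bovine sequences, mass spectrometry and imaging were not analysed here.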

Additional observations from a re-analysis of the deposited data

How the results depend on the processing

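No member of either table changed direction under any alternative run. All 24 Cfib members were called at either pseudocount, with the median of ratios and without a trend, and 23 to 24 were called with a library left out. With a minimum mean of 5, 14 members remained to be tested and all were called, 3 higher and 11 lower, so that 6 of the 9 rising members and 4 of the 15 falling members were not tested. Averaging the PH libraries, which leaves fold changes as they are and lowers the number of samples, left 19 calls, and requiring a log2 size of 1 left 16. In a paired analysis with the replicate number as a block (replicate block), 24 of 24 Cfib members were called. Libraries of equal number had correlations of 0.258, 0.0312 and 0.259 between their deviations, so the numbers were not shown to pair the libraries. ARVM labels share no numbers between groups. Of 72 ARVM members, 53 passed a minimum mean of 50 and all were called. Calls numbered 72 with edgeR, 69 with DESeq2, 57 when a log2 size of 1 was required, and 65 to 71 with a library left out, fewest without PH-CM ARVM ha2. The size of the log2 fold change depended on the pseudocount for low genes: at a pseudocount of 10 it moved by more than 1.5 times in fold for 27 of 72 ARVM members and 10 of 24 Cfib members. With a library left out, 15 ARVM members moved by as much, most of them with a fresh library at or near 0. The median of ratios moved the ARVM median by -0.02. Depth limits members near 0 in fresh ARVM, where a single read moves the fold change.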
